A study of Mus musculus with 16 samples.

Results

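The semaphorins, plexins and neuropilins were followed in mouse cocultures of sympathetic ganglia and pancreatic stellate cells. Members were taken by name from both deposited gene tables, as every protein-coding gene called Sema plus a digit and a letter, Plxn plus a letter and a digit, Nrp1 or Nrp2. This gave 31 genes of 21684 protein-coding genes, made up of 20 semaphorins, 9 plexins and 2 neuropilins. All 31 passed the filter on low counts in both tables.

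RNA-seq was performed on 16 libraries of 5 groups. PSC (n = 3) is mPSC1, an immortalized line from mouse pancreas that serves as a model of cancer-associated fibroblasts, grown alone, and PSC+SCG (n = 3) is the same line grown with explants of the superior cervical ganglion. SCG (n = 3) is ganglion explants from C57BL/6J pups of postnatal day 1 to 4 alone, SCG+MEF (n = 3) is explants grown with NIH 3T3 fibroblasts, called MEF in the labels, and SCG+PSC (n = 4) is explants grown with mPSC1. No group carried a genetic modification of its own, the pups contributing to each library were not given, and a single stellate line and a single fibroblast line stood for their cell types. Wells held 8 to 13 explants, with 10000 cells on a porous insert, for about 70 h in medium that contained nerve growth factor, so that the 2 cell sources shared medium and not a surface. PSC and PSC+SCG are in one table and the ganglion groups in another, and the tables were normalized separately. The question was which of the cultures makes each ligand and each receptor, and whether coculture altered any of them.

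Semaphorins are secreted or membrane-bound guidance proteins that share a sema domain, and most of them steer axons and migrating cells. Class 3 members are secreted and, with the exception of Sema3e, which binds Plxnd1 directly, mostly act through a neuropilin that holds the ligand and a plexin that carries the signal into the cell. Classes 4, 5 and 6 span the membrane and bind plexins directly, and Sema7a is anchored by a lipid and binds Plxnc1 and integrins. In sympathetic ganglia, Sema3a is known as a repellent that patterns axons through Nrp1.

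The labels were checked against markers fixed for each cell type, as summed TPM, the level of a transcript per length as a share of its own library. The 12 sympathetic neuron markers summed to 5477 to 11827 in the 10 ganglion libraries and to 47.0 to 70.1 in the 6 PSC libraries, in which 9 of the 12, including Th and Dbh, stayed under 10 normalized counts. The 9 glial markers summed to 2466 to 3702 in ganglia against 4.43 to 11.3 in PSCs. The ganglia therefore held neurons and glia, but also fibroblast markers at 5568 to 9062, against 6434 to 11864 in PSCs. In ganglia, endothelial markers summed to 96.0 to 128.0, macrophage markers to 398 to 678 and mural cell markers to 221 to 817, against at most 4.41, 25.5 and 55.4 in PSCs. Stellate markers did not separate the 2 sources, at 3143 to 5624 in PSCs and 4912 to 7596 in ganglia, and Lrat, which marks stellate cells that store retinoid, was listed at 0 in every PSC library. A ganglion level is therefore a mean over several cell types, and fewer cells of a type cannot be told apart from less RNA per cell. Reads on genes were 32013901 to 39197230 in 9 ganglion libraries and 31900689 to 41632381 in 5 PSC libraries.

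The 2 sources differed in most of the family. By TPM, 21 of the 31 genes were higher in each SCG library than in any PSC library, and 4 genes, Sema3a, Sema5a, Plxna1 and Plxnb2, were higher in each PSC library than in any SCG library. The other 6 overlapped. Among 21621 protein-coding genes with a known length, 6470 and 5228 were apart in these directions. A difference of at least 5-fold was seen for 15 members in favor of SCGs and for 1, Sema3a, in favor of PSCs, beside 3757 and 1557 of the 21621 genes. A mean TPM of at least 1 was reached by 13456 of these genes in SCGs and 12052 in PSCs, but by 30 and 24 of the 31 members. The 21621 genes thus include many with little RNA, which can hardly be apart. The member counts are therefore not read as a trait of the family. Summed over the 20 semaphorins, the mean TPM was 1052 in SCGs and 166 in PSCs, whereas the 9 plexins summed to 1146 and 908. Tables were normalized separately, so these levels are a description and carry no test.

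**Figure D1:**
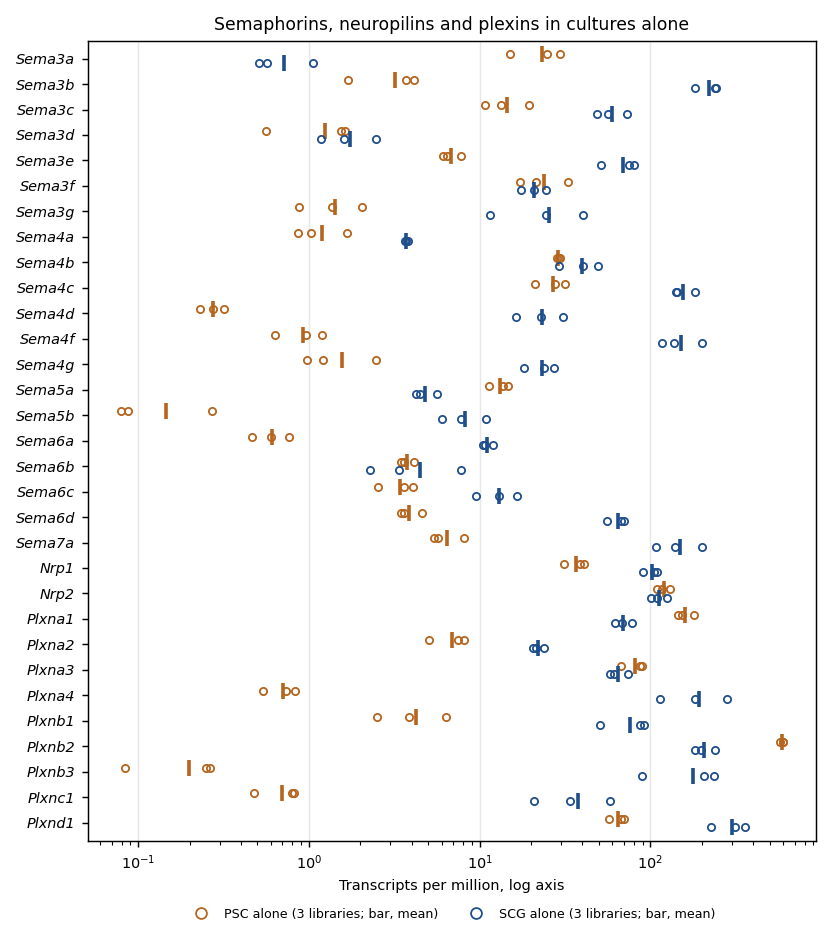
TPM (log axis) of the 31 members in the 3 PSC and 3 SCG libraries of cells grown alone, with each circle a library and each bar a mean. Sema3a, Sema5a, Plxna1 and Plxnb2 sit to the right in PSCs, and 21 genes sit to the right in SCGs.

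Sema3a was the ligand with the largest excess in the stellate line. Its TPM was 24.8, 15.1 and 29.6 in the 3 PSC libraries and 0.567, 1.05 and 0.514 in the 3 SCG libraries, a 32.6-fold higher mean in PSCs. All PSC libraries were above all SCG libraries. In PSCs it stood at a mean percentile of 68.7 among protein-coding genes, and in SCGs at 36.3. Sema5a, a transmembrane semaphorin with thrombospondin repeats, was the only other semaphorin higher in PSCs, with a mean TPM of 13.2 ± 1.71 (SD, n = 3) against 4.80 ± 0.722 (SD, n = 3).

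Of the remaining secreted semaphorins, Sema3b, Sema3c, Sema3e and Sema3g had higher TPM in the ganglia, and Sema3d and Sema3f overlapped. Sema3b was the most abundant semaphorin of the explants, at a TPM of 243, 238 and 182 against 4.12, 3.73 and 1.69 in PSCs. Sema3e, the ligand of Plxnd1, had 75.0, 80.7 and 51.7 in SCGs and 6.44, 6.09 and 7.83 in PSCs. Sema3c, which signals through both neuropilins, had 48.7, 72.6 and 56.9 in SCGs and 19.4, 10.7 and 13.4 in PSCs, so that the explants exceeded the line by 4.09-fold. For Sema3g, a ligand of Nrp2, SCGs had 24.6, 11.5 and 40.3 and PSCs 2.05, 1.37 and 0.872. In each of these 4 genes no PSC library reached the lowest SCG library. Sema3f, another Nrp2 ligand, overlapped between the sources, with 17.5, 24.5 and 20.8 in SCGs and 33.1, 21.3 and 17.3 in PSCs. Sema3d was low in both, at 1.17, 2.47 and 1.60 in SCGs and 1.55, 1.63 and 0.565 in PSCs.

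Of the membrane-bound semaphorins, Sema4c, Sema4f and Sema7a were high in ganglia and Sema4b and Sema4c led in PSCs. Sema4c, a ligand of Plxnb2, had a TPM of 182, 142 and 144 in SCGs and 31.6, 27.7 and 21.2 in PSCs. Sema4f had 201, 138 and 118 against 1.19, 0.960 and 0.635, a 164-fold gap of the means. Sema7a averaged 149.8 ± 47.5 (SD, n = 3) in SCGs and 6.41 ± 1.52 (SD, n = 3) in PSCs. Sema4b, at 28.3, 29.5 and 29.2, was the most abundant semaphorin of PSCs by exon length, and its SCG values of 40.4, 49.2 and 29.3 overlapped with them. That rank depended on the length used, since with the length of the longest transcript Sema3a came first in PSCs, as it also did by normalized count. Sema4d, the ligand of Plxnb1, was at a mean of 23.3 in SCGs and 0.275 in PSCs. The class 6 genes Sema6a, Sema6c and Sema6d were each higher in SCGs, with Sema6d highest at 64.3 against 3.89, and Sema6b overlapped.

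Both neuropilins were made by both sources. Nrp1 had a TPM of 90.8, 110 and 106 in SCGs and 38.5, 31.3 and 41.0 in PSCs, so that every SCG library was higher. Nrp2, at 100.3, 126 and 110 in SCGs and 110, 131 and 118 in PSCs, overlapped. The Nrp2 means put it at percentiles of 92.0 and 92.2 of the protein-coding genes.

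The sources differed in which plexins they expressed. PSCs made mainly Plxnb2, Plxna1 and Plxna3, whereas Plxna4, Plxnb3 and Plxnc1 were close to absent from them and high in ganglia. Plxnb2, the receptor of Sema4c, was the most abundant member in PSCs, at a TPM of 572, 601 and 598 in PSCs (mean percentile 99.0) and 183, 240 and 199 in SCGs. Plxna1 had 144, 153 and 181 in PSCs and 62.0, 78.4 and 68.0 in SCGs. Plxna3 overlapped, with 86.7, 89.2 and 67.4 in PSCs and 73.8, 57.9 and 61.6 in SCGs. Plxna4, a partner of Nrp1 in Sema3a signaling in sympathetic neurons, had 182, 114 and 280 in SCGs and 0.740, 0.540 and 0.834 in PSCs. This was a 273-fold gap of the means. Plxnd1, the receptor of Sema3e, led the plexins of the ganglia at 312, 361 and 228, with 70.2, 67.2 and 57.1 in PSCs. Plxnb3, a receptor of Sema5a, averaged 177 ± 77.4 (SD, n = 3) in SCGs and 0.199 ± 0.101 (SD, n = 3) in PSCs, where its normalized counts were 11.8, 11.4 and 3.85. Plxnc1, the receptor of Sema7a, averaged 37.5 ± 18.9 against 0.699 ± 0.193 (SD, n = 3 each). For Sema7a and Plxnc1, and for Sema3e and Plxnd1, ligand and receptor were therefore both higher in ganglia. For Sema3a the ligand was higher in PSCs and Plxna4 and Nrp1 in ganglia. PSCs nevertheless held Nrp1, at a mean TPM of 36.9. Of the other Plxna genes, Plxna1 was higher in PSCs, Plxna2 was higher in ganglia and Plxna3 overlapped, so receptor genes were present in both sources.

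The promoters of Sema3c and Sema3a are shown because these were the members whose RNA passed the threshold below when all libraries were fitted with the replicate number as a block. Both genes lie on chromosome 5, with Sema3c at chr5:17779219-17935648 and Sema3a at chr5:13175288-13653578 (GRCm39, + strand), and Sema3d and Sema3e lie near them at chr5:12433124-12638929 and chr5:14075290-14306719. Each sequence runs from 250 bases before to 50 bases after the RefSeq start (GRCm38.p6, + strand, chr5:17574566-17574865 for Sema3c and chr5:13396534-13396833 for Sema3a). Capitals mark GGGCGG, the core of the GC box bound by Sp1-type factors, or its reverse complement CCGCCC.
Sema3c: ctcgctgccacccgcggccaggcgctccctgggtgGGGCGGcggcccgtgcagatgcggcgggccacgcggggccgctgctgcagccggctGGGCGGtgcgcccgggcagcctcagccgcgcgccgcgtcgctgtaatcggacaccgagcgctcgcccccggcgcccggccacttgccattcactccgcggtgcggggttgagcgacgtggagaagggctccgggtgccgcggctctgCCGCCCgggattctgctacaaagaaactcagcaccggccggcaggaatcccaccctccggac
Sema3a: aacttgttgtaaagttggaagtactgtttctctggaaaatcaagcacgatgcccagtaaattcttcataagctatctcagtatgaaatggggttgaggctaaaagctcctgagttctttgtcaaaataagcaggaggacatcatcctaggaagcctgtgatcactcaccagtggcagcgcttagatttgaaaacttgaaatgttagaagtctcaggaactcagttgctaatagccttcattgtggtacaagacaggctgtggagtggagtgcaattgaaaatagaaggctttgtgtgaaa

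The Sema3c window was 75.7% G or C and held 3 GC boxes, which began at positions 36, 92 and 239 from its 5′ end. The Sema3a window was 41.3% G or C and held none, against a median of 52.7% over 32851 RefSeq mouse promoter windows. Of those, 35.7% held GGGCGG on either strand, as did 21 of the 26 members with a window. The Sema3a window matched a coding transcript start of the GRCm39 annotation exactly, but the first annotated start lies 271463 bases upstream, so that gene counts pool several promoters. The Sema3c window held 0 annotated coding transcript starts of GRCm39, where the nearest lies 83 bases downstream of the RefSeq start and the first 595 bases upstream. Which start was used cannot be read from gene counts.

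PSCs were then compared with and without ganglia. A gene was past the threshold where the p from limma, after Benjamini-Hochberg adjustment over all genes tested, did not exceed 0.05 and the log2 fold change reached 0.5 in either direction. Without a replicate term, 0 of 14541 protein-coding genes (0.0%) and 0 of the 31 members passed, and at an unadjusted p under 0.05 there were 205 genes (1.41%) and 3 members. Same-numbered PSC and PSC+SCG libraries deviated together, and with the replicate number as a block 76 genes (0.523%) passed, of which 65 were higher (0.447%). Among the members, Sema3c alone passed with the block, and it was higher. The study itself singled out Sema3c from these libraries, so its call here is not independent evidence. The paper also reports, from immunofluorescence, more SEMA3C protein in PSCs given ganglion medium or grown directly with ganglia. These libraries do not measure protein.

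Sema3c rose in PSCs cocultured with ganglia. Its normalized counts were 1081, 604 and 774 in PSC replicates 1 to 3 and 1697, 1112 and 1386 in PSC+SCG replicates 1 to 3. The lowest cocultured library lay just above the highest control, and within numbers the log2 differences were 0.65, 0.88 and 0.84. The mean rose 1.71-fold, a log2 fold change of 0.79 ± 0.11 (SE) with an adjusted p of 8.08e-04 (limma with the replicate block). Without the block the SE was 0.23 and the adjusted p 0.9999. In 6 fits with the block that each lacked 1 library, Sema3c had log2 fold changes of 0.75 to 0.86 and passed every time. Under the block, leaving out either library of a number leaves the same pairs to set the fold change, so these 6 fits are not separate checks. A normalized count of 2498 to 3623 was present in SCGs alone, so ganglion markers were read beside it. The neuron markers summed to 55.6 to 61.4 TPM in PSC and 47.0 to 70.1 in PSC+SCG, with 9 of 12 under 10 counts in each. The glial markers summed to 4.43 to 6.33 and 6.46 to 11.3, with 5 of 9, Sox10 included, under 10 counts in each, and their part in the Sema3c values was not tested.

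Sema3c, Sema6d and Sema7a were the 3 members whose groups did not overlap, against 4.37% of protein-coding genes. Sema6d, a transmembrane ligand of Plxna1, had 360, 276 and 295 normalized counts in PSC and 579, 449 and 384 in PSC+SCG. All 3 pairs were higher with ganglia, but the log2 fold change of 0.59 ± 0.14 (SE) did not pass, with an adjusted p of 0.0701 (limma with the replicate block). It passed with replicate 3 of either group left out, at an adjusted p of 0.0114 or 0.0136 (limma with the replicate block). Both of these fits rest on the same remaining pairs. Sema7a, the lipid-anchored ligand of Plxnc1, had 122, 131 and 191 in PSC and 80.1, 97.7 and 67.0 in PSC+SCG. All 3 pairs were lower, with a log2 fold change of -0.84 ± 0.23 (SE) that did not pass at an adjusted p of 0.122 (limma with the replicate block).

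**Figure D2:**
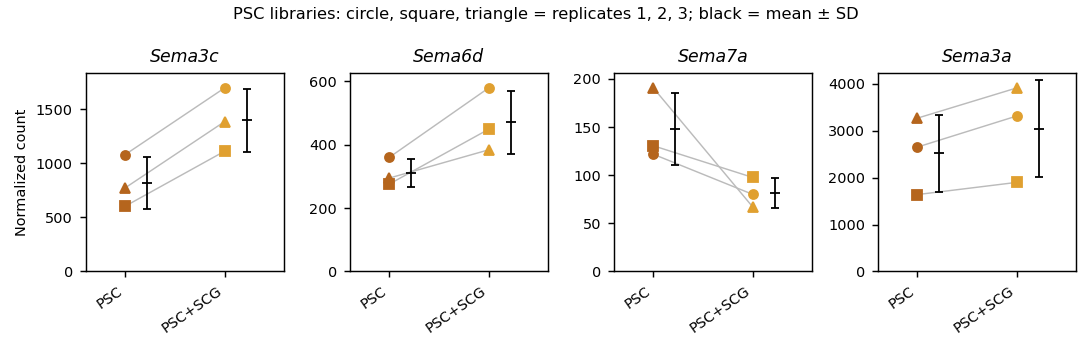
Normalized counts of Sema3c, Sema6d, Sema7a and Sema3a in PSC and PSC+SCG, with lines joining same-numbered libraries and black bars for the mean ± SD (n = 3). For Sema3c the controls lie at 604 to 1081 and the cocultured libraries at 1112 to 1697.

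The remaining ligands and the receptors of PSCs moved less. Log2 fold changes of 28 of the 31 members were under 0.5 in size, and their median was 0.12 against 0.01 for all protein-coding genes. Sema3a had 2650, 1638 and 3266 normalized counts in PSC and 3312, 1898 and 3910 in PSC+SCG. It was higher in all 3 pairs by a log2 mean of 0.26 ± 0.10 (SE), but the groups overlapped and the adjusted p was 0.353 (limma with the replicate block). Sema3e had 527, 505 and 662 against 530 to 900 with ganglia, Sema3f 687 to 1273 against 801 to 1211, and Sema3b, Sema3d and Sema3g stayed at 27.9 to 159 in all 6 libraries. For the neuropilins, Nrp1 had 3998, 3297 and 4404 in PSC and 4567, 3601 and 4389 in PSC+SCG, and Nrp2 had 9017, 10899 and 9960 against 10169, 11364 and 9323. The log2 fold change was 0.10 ± 0.10 (SE) for Nrp1 and 0.05 ± 0.10 for Nrp2 with the block. Of the plexins, Plxnb2 had 31869, 33977 and 34458 against 31010, 37237 and 38575, and Plxna1 had 15350, 16480 and 19934 against 14908, 15090 and 28695. In the last gene a single cocultured library, replicate 3, stood far above the others.

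Ganglia were compared over 9 libraries, replicates 1 to 3 of each group, because only SCG+PSC has a replicate 4. Without the block, 3 of 15908 protein-coding genes (0.0189%) passed in SCG+PSC against SCG and 3 (0.0189%) in SCG+MEF against SCG, with no member among them. At an unadjusted p under 0.05, 2 members were seen in each, against 659 genes (4.14%) and 388 genes (2.44%). With the replicate block, 309 genes (1.94%) passed in SCG+PSC and 38 (0.239%) in SCG+MEF, and Sema3a was the only member among them in each. Both comparisons share the same 3 SCG libraries, so the 2 calls are not independent. Genes that passed as higher were 1.76% and 0.17% of those tested.

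Sema3a, at a low level in ganglia alone, rose with either fibroblast line. The paper already lists Sema3a among the ganglion genes raised by both lines, from these libraries, so its calls here are not independent evidence. Its normalized counts were 55.7, 101 and 51.2 in SCG, 566, 247 and 241 in SCG+MEF and 190, 169 and 262 in SCG+PSC, with 307 in SCG+PSC replicate 4. Every cocultured library lay above every SCG library. In SCG+MEF against SCG the groups were apart for 2 members, Sema3a and Plxna2, and for 4.98% of genes. The mean was 5.07-fold higher with MEFs and 2.99-fold higher with PSCs over replicates 1 to 3. With the block, the log2 fold change was 2.27 ± 0.33 (SE) for SCG+MEF, with an adjusted p of 0.0202, and 1.61 ± 0.33 (SE) for SCG+PSC, with an adjusted p of 0.0355 (limma). Without the block the adjusted p values were 0.279 and 0.947, and with all 4 SCG+PSC libraries the latter was 0.315. DESeq2, run on whole reads recovered from the normalized values, gave adjusted p values of 8.47e-06 and 0.0295 without the block and 0.00301 and 0.0588 with it.

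The Sema3a call rested on few libraries. With the block and 1 library omitted at a time, log2 fold changes were 1.79 to 2.74 for SCG+MEF and 1.23 to 2.07 for SCG+PSC. The gene passed in 2 of 6 fits in each comparison, those without replicate 2 of SCG, of SCG+MEF or of SCG+PSC, and it did not pass where a library of replicate 1 or 3 was left out. Between the cocultures, the log2 difference of SCG+PSC to SCG+MEF was -0.67 ± 0.33 (SE), with an adjusted p of 0.477 (limma with the replicate block), and 1 of 3 pairs was higher with PSCs. Without SCG+MEF replicate 1 the difference under the block was -0.18.

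Because PSCs make Sema3a, its level in ganglia was set beside that of other PSC genes. As a share of the PSC mean of 2518 normalized counts, Sema3a was at 2.03% to 4.0% in SCG and at 6.72% to 12.2% in the 4 SCG+PSC libraries. A set of 12 genes had at least 1000 counts in PSCs and at most 5 in SCG+MEF, among them Cck, Pax3 and Nkx2-3. It summed to 0.0791% to 0.289% of its PSC level in SCG. In SCG+PSC it stood at 0.902% in replicate 2 and at 0.0613% to 0.121% in the other replicates. The set was chosen from these libraries for near absence in a ganglion group, a rule that Sema3a did not meet. Its shares and those of Sema3a are therefore not like for like, and RNA carried over from PSCs was not tested. The ganglion and PSC tables were normalized separately, so these shares are a description with no test. No library of 3T3 cells alone was analysed here, so the same comparison was not made for SCG+MEF. Against SCG with the block, 2 of 8 fibroblast markers passed in each coculture, Lum and Fbln1 in SCG+PSC and Lum and Dcn in SCG+MEF, all higher. Only Postn had a negative log2 fold change, at -0.04 in SCG+PSC and -0.14 in SCG+MEF. The list summed to 5568 to 9062 TPM in SCG, 6564 to 8921 in SCG+MEF and 7090 to 8809 in SCG+PSC. Of the macrophage markers Mrc1 passed as higher in SCG+PSC, and of the glial markers Fabp7 passed as lower in SCG+MEF. Of 6 markers of dividing cells, 5 passed as higher in SCG+PSC and 0 in SCG+MEF, with sums of 196 to 502, 211 to 528 and 432 to 684 TPM in SCG, SCG+MEF and SCG+PSC. The part of these shifts in the Sema3a values was not tested.

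Nrp2 was the receptor closest to the threshold. It had 7572, 9222 and 8395 normalized counts in SCG, 7862, 7063 and 8240 in SCG+MEF and 6114, 6153 and 6152 in SCG+PSC, with 6526 in replicate 4. All SCG+PSC libraries lay below all libraries of the other ganglion groups. Against SCG the groups were apart in either direction for 7.12% of protein-coding genes and for 3 members, with Nrp2 lower and Sema3a and Sema4a higher in SCG+PSC. The log2 fold change to SCG was -0.45 ± 0.09 (SE), with an adjusted p of 0.0237 (limma with the replicate block), but its size was under the 0.5 required, so it was not counted. With each library left out under the block the adjusted p was 0.0517 to 0.102. Against SCG+MEF it was -0.33 ± 0.09 (SE), with an adjusted p of 0.115. Nrp1, in contrast to Nrp2, had 8690, 10204 and 10257 in SCG, 9184, 10397 and 10376 in SCG+MEF and 9669, 10646, 10804 and 11560 in SCG+PSC, and these ranges overlapped.

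**Figure D3:**
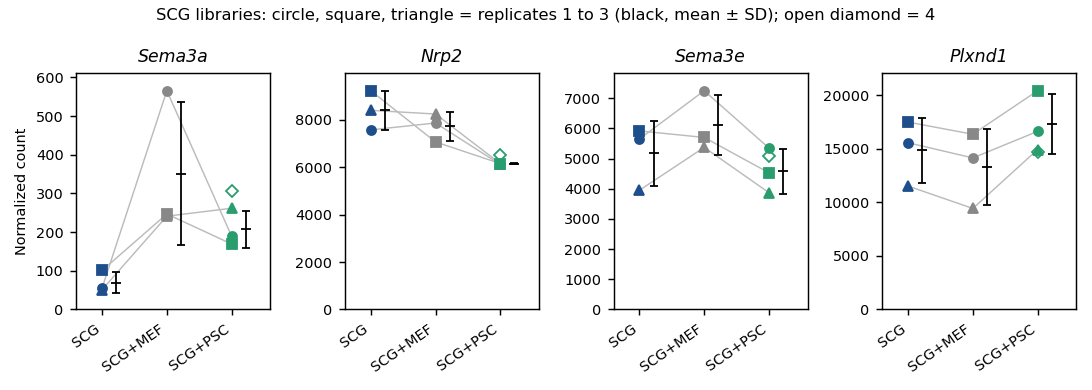
Normalized counts of Sema3a, Nrp2, Sema3e and Plxnd1 in the 3 ganglion groups, with lines joining same-numbered libraries, black bars for the mean ± SD of replicates 1 to 3 and an open diamond for SCG+PSC replicate 4. Sema3a is at 51.2 to 101 in SCG and at 169 to 566 in the cocultures, and Nrp2 is at 6114 to 6526 in SCG+PSC and at 7063 or more in the others.

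SCG+PSC and SCG+MEF were also compared directly. Without the block 0 of 15908 genes (0.0%) passed, with 488 (3.07%) and 3 members at an unadjusted p under 0.05, and DESeq2 called 18 genes and no member. With the block 181 genes (1.14%) passed and no member. Plxnd1, the receptor of Sema3e, had 14144, 16356 and 9427 normalized counts in SCG+MEF and 16625, 20418 and 14926 in SCG+PSC, and all 3 pairs were higher with PSCs. Its log2 difference was 0.41 ± 0.09 (SE), with an adjusted p of 0.0526 (limma with the replicate block). Sema3e itself had 7248, 5700 and 5370 in SCG+MEF and 5350, 4529 and 3871 in SCG+PSC, so that the groups did not overlap. Its log2 difference was -0.41 ± 0.09 (SE), with an adjusted p of 0.0624. The groups were apart for 3 members, Sema3e, Nrp2 and Plxna2, against 7.01% of genes. Plxna2, a receptor of class 6 semaphorins, had 2585, 2255 and 2248 in SCG, 1952, 1984 and 2017 in SCG+MEF and 2391, 2516 and 2352 in SCG+PSC. It was lower in every SCG+MEF library than in any other ganglion library and did not pass, with adjusted p values of 0.439 to SCG and 0.139 to SCG+PSC (limma with the replicate block). Set against SCG alone, at 5649, 5916 and 3951 for Sema3e and 15561, 17487 and 11516 for Plxnd1, neither gene passed in either coculture. Between the cocultures under the block, Sema3e passed with SCG+MEF replicate 2 left out, and Plxnc1 with SCG+PSC replicate 2 left out.

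The other secreted semaphorins of the ganglia did not pass in any of these comparisons. Sema3b had 7515, 7176 and 5709 normalized counts in SCG, 10134, 7905 and 6623 in SCG+MEF and 8414, 7383 and 6241 in SCG+PSC. Sema3c, which rose in PSCs, had 2498, 3623 and 2960 in SCG, 2350, 2838 and 3182 in SCG+MEF and 2829, 3365 and 3602 in SCG+PSC. Its log2 fold change in SCG+PSC against SCG was 0.12 ± 0.09 (SE, with the block). Sema3f ranged from 575 to 897 and Sema3g from 321 to 1169 over the 10 libraries, and Sema3d from 59.8 to 135. Over all 31 members, the median log2 fold change was 0.00 in SCG+PSC against SCG, 0.00 in SCG+MEF against SCG and -0.01 in SCG+PSC against SCG+MEF, beside 0.01, 0.03 and -0.02 for all protein-coding genes. In each of the first 2 comparisons 30 of 31 members stayed under 0.5 in size, and 29 did in the third.

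**Figure D4:**
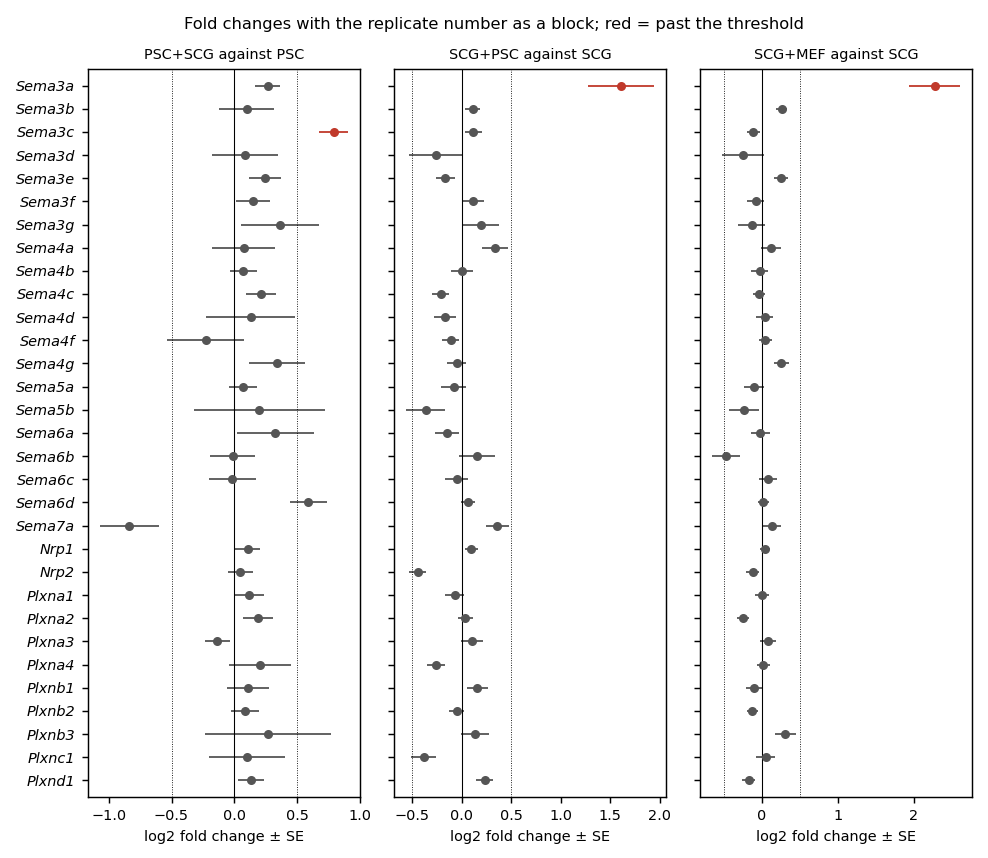
Log2 fold change ± SE of each member in PSC+SCG over PSC, in SCG+PSC over SCG and in SCG+MEF over SCG, from limma with the replicate number as a block, with red for members past the threshold and dotted lines at a size of 0.5. Sema3c at 0.79 is red in the first panel and Sema3a at 1.61 and 2.27 in the others, and the 3 horizontal axes differ in range.

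Replicate number separated the ganglion libraries more than coculture did for most members. In the 3 groups by 3 numbers, the number accounted for a median of 73.1% of the log2 variance of the 31 members and the group for 13.1%, beside 55.5% and 14.9% over 15908 protein-coding genes. The number exceeded the group in 12323 of the 15908 genes and in 27 of 31 members, the exceptions being Sema3a, Nrp2, Plxna2 and Sema4a. Plxna4 was highest in replicate 3 and lowest in replicate 2 of each group, with 16687, 10152 and 26015 normalized counts in SCG, 18405, 11224 and 22311 in SCG+MEF and 13332, 9661 and 19935 in SCG+PSC. The summed neuron markers had the same order, at 9619, 5477 and 11827 TPM in SCG replicates 1 to 3. Plxnc1 shared that order. Plxnb1, a receptor of Sema4d, was instead highest in replicate 1 and lowest in replicate 3, with 7481, 6839 and 4186 in SCG. The summed glial markers were 3234, 3478 and 2466 TPM there, which is not the same order. The summed macrophage markers had the order of Plxnb1, at 678, 494 and 398 TPM. In SCG+MEF and SCG+PSC both sums fell from replicate 1 to replicate 3. The part of cell types in these orders was not tested. The same highest and lowest number in all 3 groups was seen for 8 of 31 members (25.8%) and for 22.9% of all genes. In PSCs the number accounted for a median of 73.6% and the group for 9.44% of the variance of the members, beside 68.2% and 5.49% over 14541 protein-coding genes.

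**Figure D5:**
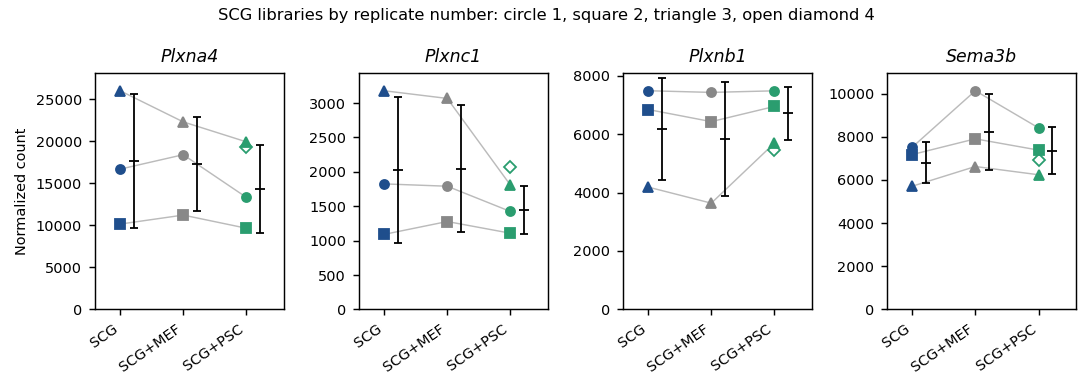
Normalized counts of Plxna4, Plxnc1, Plxnb1 and Sema3b in the ganglion groups, with symbols for the replicate number, lines joining equal numbers and black bars for the mean ± SD of replicates 1 to 3. In SCG, Plxna4 is at 10152 in replicate 2 and 26015 in replicate 3, and Plxnb1 is at 7481 in replicate 1 and 4186 in replicate 3.

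Other genes of semaphorin signaling were read from 4 lists. Of 25 other ligands, co-receptors and receptors, 20 were tested in PSCs and 24 in ganglia, and none passed without the block. With the block, 0 passed in PSCs, 0 in SCG+PSC against SCG, 1 in SCG+MEF against SCG and 2 in SCG+PSC against SCG+MEF. Pgf, a ligand of Flt1 that also binds neuropilins, had 687, 830 and 1219 normalized counts in SCG, 409, 440 and 637 in SCG+MEF and 705, 736 and 1097 in SCG+PSC, each in ascending order. It was lower in SCG+MEF than in SCG, by a log2 fold change of -0.87 ± 0.10 (SE), with an adjusted p of 0.00349 (limma with the replicate block). It was higher in SCG+PSC than in SCG+MEF, by 0.77 ± 0.10 (SE), with an adjusted p of 0.0162. Met, the hepatocyte growth factor receptor, which associates with B-type plexins, had 4835, 5322 and 6236 in SCG+MEF and 2462, 3298 and 3635 in SCG+PSC, in ascending order. It was lower in SCG+PSC, by a log2 fold change of -0.81 ± 0.15 (SE), with an adjusted p of 0.0363. SCG alone had 2556, 2973 and 5304 for Met. None of the 34 intracellular effectors (collapsin response mediators, MICAL and LIM kinases among them), of the 7 proteases that process semaphorins or of 10 Slit, netrin and ephrin ligands passed in any comparison with or without the block. In these 3 lists 33, 7 and 10 genes were tested in PSCs and 34, 7 and 10 in ganglia. At an unadjusted p under 0.05 with the block (limma), PSCs had 3 other ligands and receptors, 1 effector, 0 proteases and 1 guidance ligand, against 6.09% of all genes and 4 of the 31 members. SCG+PSC against SCG had 6, 5, 2 and 1 in the same order, against 13.3% of genes and 8 members. SCG+MEF against SCG had 7, 1, 2 and 4, against 8.1% of genes and 6 members. The direct comparison of the cocultures had 6, 4, 2 and 3, against 14.8% of genes and 10 members. The median log2 fold changes of the 4 lists lay between -0.02 and 0.13.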

How the data were processed

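RNA was sequenced from 16 libraries with a stranded mRNA kit. The authors aligned reads with STAR 2.7.10b to GRCm39 (GENCODE M33), counted reads per gene and deposited a signal per gene, counts divided by DESeq2 1.38.3 size factors, in 1 table for PSC and 1 for ganglion libraries. In 14 libraries the deposited values were multiples of whole reads (tolerance 0.1), from which reads were recovered. Groups came from the labels, which do not say whether libraries came from separate cultures, so p-values measure the spread between these libraries. log2(normalized count + 1) was tested with limma 3.58.1 (R 4.3.3, trended variance) on genes with a sum of at least 10, with no block, as the labels tie no library to the batches of the study's own model. With edgeR 4.0.16 and DESeq2 1.42.0 on recovered reads as alternatives, the tests were first tested on simulated data. The simulated data held no effect of replicate number, so they cannot decide between fits with and without the block. TPM used exon lengths of GENCODE M39. Deviations of same-numbered libraries correlated at 0.376 to 0.823 over 13036 or 14045 genes in every pair, so the number was taken to pair them. Libraries of different number correlated at -0.573 to 0.091 in ganglia and at -0.696 to 0.335 in PSCs. The positive PSC values were 0.335 for PSC 1 with PSC+SCG 2 and 0.18 for PSC 2 with PSC+SCG 1. Replicates 1 and 2 were thus less clearly apart in PSCs. Members, lists and the rule for named genes (members past the threshold, class 3 semaphorins, neuropilins and the 3 highest per class and source) were chosen with earlier results of these data known. Fits with the block and 1 library left out were added after seeing the data. Chromosome positions of genes are from GENCODE M39, promoters from RefSeq.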

Additional observations from a re-analysis of the deposited data

Results flagged for a closer look

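In the 4 SCG+PSC libraries, the gap of the highest or lowest library to its neighbor, divided by the range, exceeded the critical value of Dixon's test for 4 of the 31 members. Chance flags about 1 in 20 groups where values are normal and independent, and the members share the same libraries. The share over all protein-coding genes was not computed, so the count is not read as a trait of the family. Nrp2 had 6526 normalized counts in replicate 4 and 6114 to 6153 in the others. Sema3d had 108.5 in replicate 2 and 63.5 to 66.2 in the others. Sema3f had 896 in replicate 2 and 728 to 755 in the others. Sema4g had 1667 in replicate 1 and 1107 to 1145 in the others. Replicate 2 of SCG also had the highest Sema3d and Sema3f value of its group, at 135 and 844, and Sema4g was highest in replicate 1 of SCG, at 1605. In SCG+MEF, Sema3f was again highest in replicate 2, at 897, and Sema4g in replicate 1, at 2135. Sema3d was not, with 117 in replicate 3 and 68.3 in replicate 2 of SCG+MEF.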

How the results depend on the processing

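Without the replicate block no member passed in any of the 4 comparisons under pseudocounts of 0.5 or 8, quantile normalization, no filter or a stricter one (10 or more in 3 libraries or more), or, in ganglia, edgeR, the 2 groups compared only and all 4 SCG+PSC libraries. The replicate block gave 1 member in PSC+SCG against PSC (Sema3c) and 1 in each comparison with SCG (Sema3a), and changed no other member's call. DESeq2 without the block gave 1 member (Sema3a) in SCG+PSC against SCG and 1 in SCG+MEF against SCG. With the block DESeq2 gave 0 and 1. Leaving out 1 library gave 0 members without the block. With the block it gave 1 to 2 members in PSCs, 0 to 1 in SCG+PSC against SCG, 0 to 1 in SCG+MEF against SCG and 0 to 1 between the cocultures. All protein-coding genes past the threshold rose from 0 to 76, from 3 to 309, from 3 to 38 and from 0 to 181 with the block, in the order PSC+SCG, SCG+PSC, SCG+MEF and the direct comparison. DESeq2 gave 58, 21 and 18 such genes in the 3 ganglion comparisons without the block and 415, 104 and 365 with it. Under these settings no sign changed for Sema3c, Sema6d and Sema7a in PSCs, for Sema3a in the 3 ganglion comparisons or for Nrp2 in SCG+PSC against SCG, and the signs of the other members were not followed. With the longest transcript as length, 4 members were higher in every PSC and 22 in every SCG library, and by percentile of the count 4 and 20. The cause of the differences between settings was not tested. PSC reads were not recovered for 1 library, so no count test was run there. At 3 libraries a group, the SE of a member's log2 fold change without the block was 0.10 to 0.59.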
